A study of Mus musculus with 6 samples.

Results

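Cytokine receptor chains other than those of interleukin 2 were followed in regulatory T cells (Tregs), a CD4 lineage that dampens immunity. The genes were chosen by symbol, with earlier results of these data known. They are Il4ra, Il6ra, Il6st, Il7r, Il10ra, Il18r1, Il21r, Il27ra, Ifngr1 and Il1rl1, 10 of the 23725 genes in the deposited tables. All 10 were found and all 10 passed the filter on low counts.

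The Tregs came from lymph nodes of C57Bl/6 mice that had been immunised with myelin oligodendrocyte glycoprotein (MOG), a protein of the myelin sheath. The MOG KO group, 3 libraries, came from mice that lack MOG in the whole animal. The WT group, 3 libraries, came from wild-type mice, in which MOG is a self protein. The labels used here give neither age nor sex, nor the markers by which the cells were isolated. Each library was made from the RNA of 500 cells by 15 cycles of PCR without molecular identifiers. The labels do not say whether replicates are separate mice, and the spread behind every p-value may therefore be technical.

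Cytokine receptors are built from chains that meet in the membrane when the ligand binds. The receptors of interleukins 4, 7 and 21 pair their own chain with the common gamma chain, and those of interleukins 6 and 27 use gp130, the product of Il6st. These chains and the receptors of interleukin 10 and interferon gamma signal through Janus kinases (JAKs) and the transcription factors called STATs. The receptors of interleukins 18 and 33 belong to the interleukin 1 receptor family and signal through the adaptor MyD88. Tregs are known to carry many of these receptors. Interleukin 33 receptor, ST2, marks a subset of tissue and effector Tregs, while the interleukin 7 receptor is usually lower on Tregs than on conventional T cells.

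Total counts were 3450623 to 4361315 in MOG KO libraries and 2717969 to 4472549 in WT libraries. Below, levels are reads-per-million values (RPM, scaled to all counted reads of the library) in replicates 1, 2 and 3 of a group, and a gene is called present at 10 RPM or more. WT replicate 3 had the fewest genes present, 2701. The other 5 had 3265 to 4440. Of 7 Treg and T cell markers (Foxp3, Il2ra, Ctla4, Ikzf2, Cd3e, Cd3d and Cd4), 6 were present in every library. Foxp3, the lineage factor, had 476, 444 and 326 RPM in MOG KO and 690, 400 and 8.22 RPM in WT. Markers of CD8 T cells and NK cells had 0 counts throughout, mast cell markers reached 0.29 RPM, dendritic cell markers 1.45 RPM and myeloid markers 9.57 RPM. Of 4 B cell markers, Cd79a was at 0 counts in every library, Cd79b was present in MOG KO replicate 2 and WT replicate 2, and Ms4a1 in WT replicate 3. The summed B cell markers ranged from 0 to 130 RPM in MOG KO and from 2.21 to 206 RPM in WT. The 3 haemoglobin genes measured summed to 20.1 to 66.1 RPM in MOG KO and 68.8 to 151 RPM in WT, and none of the 3 passed the test. The part of B cells or red cells in the receptor values was not tested. In bulk samples such as these, fewer cells that express a gene and less RNA per cell cannot be told apart.

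The main feature of the receptor genes was that most were read well above 10 RPM in some libraries and near 0 in others, in both genotypes. Ifngr1 and Il27ra were present in all 6 libraries, 2 of 10 receptor genes, where 8.9% of the 7909 genes present in any library were present in all. The other 8 were present in 3 to 5 libraries each. Of the 60 values of the 10 genes, 34 were at 100 RPM or more, 14 were under 3 RPM, and 4 lay between 3 and 10 RPM. As shares these were 56.7%, 23.3% and 6.67%. Over all 7909 genes, 31.8% of the values were at 100 RPM or more, 52% under 3 RPM and 3.09% between 3 and 10 RPM. The number of receptor genes present was 8, 7 and 5 in MOG KO replicates 1, 2 and 3, and 9, 9 and 4 in WT replicates 1, 2 and 3. Together that is 20 of 30 values in MOG KO (66.7%) and 22 of 30 in WT (73.3%). Over all 7909 genes the shares were 43.2% in MOG KO and 46.6% in WT. The libraries compared pairwise across genotypes disagreed on the presence of 2 to 6 of the 10 genes (median 3, 9 pairs), and those within a genotype on 2 to 7 (median 5, 6 pairs).

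**Figure D1:**
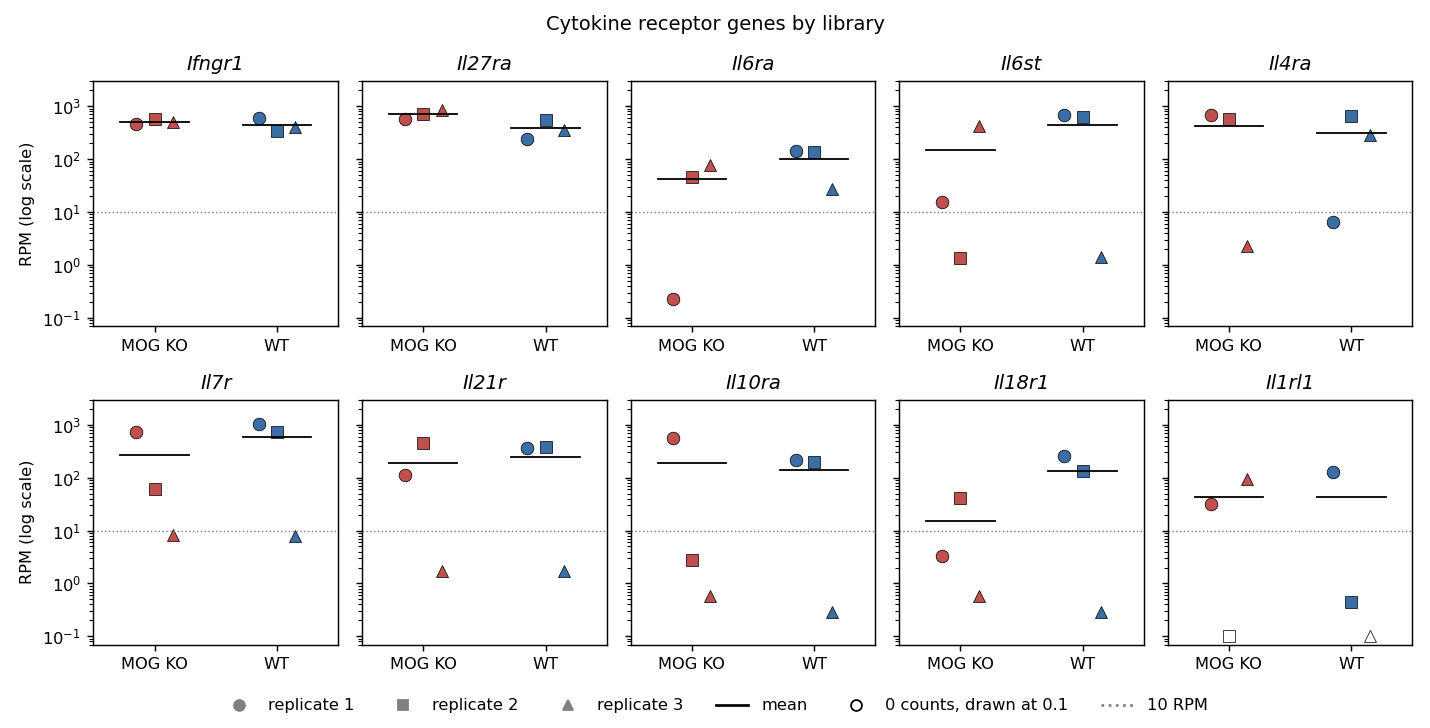
Level of each cytokine receptor gene in RPM (log axis) in the 3 MOG KO and the 3 WT libraries, with 1 point per library, the mean as a bar and 10 RPM as a dotted line; open points are 0 counts, drawn at 0.1. Ifngr1 and Il27ra are above 10 RPM in every library, and each of the other genes has at least 1 library below it.

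No receptor gene passed the test between genotypes. In edgeR's quasi-likelihood test across 4088 genes, 0 of the 10 passed a Benjamini-Hochberg adjusted p of 0.05 (adjusted p = 1 for each), and 0% of all genes tested passed. At an unadjusted p under 0.05 there were 0 of the 10 and 209 of the 4088. DESeq2 and limma-voom also called 0 of the 10. The log2 fold change, MOG KO minus WT, was positive for 4 and negative for 6, with a median of -0.2, beside a median of 0.06 over all genes tested, of which 52.1% were positive. Per length of exon, Ifngr1 was the highest, at 169 ± 33.7 RPM per kilobase (SD over 6 libraries), followed by Il27ra at 156 ± 62.6 and Il7r at 91.8 ± 97.5. Il21r, Il4ra, Il10ra, Il6st, Il18r1, Il6ra and Il1rl1 came next, from 66.2 ± 61.8 to 6.19 ± 8.12. Each gene's gap to the next in this order was smaller than the larger SD of the pair, so neighbours in it did not differ beyond their spread.

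Promoter sequence is shown for 3 receptor genes that differ in how many libraries read them and in their CpG content. Ifngr1 was present in all 6 libraries, Il6st in 4 and Il1rl1 in 3. Each line gives the 250 bases before the RefSeq start on GRCm38.p6, 5′ to 3′, with CpG dinucleotides in capitals. The windows are chr10:19591699-19591948 (plus strand) for Ifngr1, chr13:112463820-112464069 (plus strand) for Il6st and chr1:40429320-40429569 (plus strand) for the first of the start sites of Il1rl1.
Ifngr1: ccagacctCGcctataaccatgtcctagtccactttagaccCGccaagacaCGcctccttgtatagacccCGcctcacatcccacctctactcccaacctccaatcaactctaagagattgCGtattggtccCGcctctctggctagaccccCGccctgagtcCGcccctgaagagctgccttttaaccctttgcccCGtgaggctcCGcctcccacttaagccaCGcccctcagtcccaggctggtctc
Il6st: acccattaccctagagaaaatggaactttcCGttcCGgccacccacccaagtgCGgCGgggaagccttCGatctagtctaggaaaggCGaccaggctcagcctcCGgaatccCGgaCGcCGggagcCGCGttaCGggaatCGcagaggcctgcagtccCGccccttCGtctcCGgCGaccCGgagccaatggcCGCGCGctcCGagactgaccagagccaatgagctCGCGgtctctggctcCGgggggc
Il1rl1: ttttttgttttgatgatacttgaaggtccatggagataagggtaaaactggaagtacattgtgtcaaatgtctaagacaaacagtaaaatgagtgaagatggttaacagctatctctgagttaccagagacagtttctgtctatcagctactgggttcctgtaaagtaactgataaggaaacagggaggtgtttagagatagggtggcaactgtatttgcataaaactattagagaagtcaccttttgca
The Ifngr1 window holds 11 CpG and 59.2% G or C, the Il6st window 26 CpG and 66%, and the Il1rl1 window shown 0 CpG and 37.6%. The other Il1rl1 window, not shown, holds 3 CpG and 46.4%. Over 32851 such windows of all genes the medians were 6 CpG and 52.4% G or C. Windows were found for 8 of the 10 genes, and not for Il10ra and Il27ra. The number of CpG, which was 18 for Il6ra, 17 for Il4ra, 4 for Il21r and 1 for Il7r among the others with a single window, is given as a description and did not order the genes by the number of libraries that read them. The sequence TTCNNNGAA, the core pattern of STAT sites, which reads the same on both strands, occurred in the window of Il7r and in 1 of the 3 windows of Il18r1, and in 7.02% of all windows. A match is a description of these letters and not a site.

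The gp130 family held the member whose genotypes did not overlap. Il27ra, the specific chain of the interleukin 27 receptor (Entrez 50931, GRCm38 chromosome 8, 84030294 to 84042589, protein-coding), had 570, 720 and 833 RPM in MOG KO and 243, 553 and 361 RPM in WT. Every MOG KO library was above every WT library, and WT replicate 2 lay just under MOG KO replicate 1. The means were 708 ± 132 RPM in MOG KO and 385 ± 156 RPM in WT (SD, n = 3 each), with an exact two-sided permutation p of 0.1, the smallest that 3 against 3 allows. Any gene whose groups do not overlap has this p, so it is not separate evidence. The log2 fold change was 0.83 ± 0.61 (SE; 95% interval -0.57 to 2.23; edgeR adjusted p = 1), and it lay between 0.58 and 1.14 when any 1 library was left out. Of the 10 receptor genes 1 had groups that did not overlap, and of all genes tested 10.5% did, 5.97% with MOG KO above WT, so the share among the receptor genes was close to the background. Il27ra overlaps Palm3 on the opposite strand, and no source used here gives the strand setting, so reads of this pair may be mixed. Palm3 had 101, 0 and 0.29 RPM in MOG KO and 0, 136 and 0 RPM in WT, and its part in the Il27ra values was not tested.

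Il6st, gp130 itself (Entrez 16195, chromosome 13, 112464070 to 112510086), had 15.5, 1.38 and 432 RPM in MOG KO and 698, 635 and 1.42 RPM in WT. WT replicates 1 and 2 were the highest, WT replicate 3 and MOG KO replicate 2 were near 0, and the genotypes overlapped. The log2 fold change was -1.53 ± 2.34 (95% interval -6.99 to 3.93), and -5.72 without MOG KO replicate 3. Il6ra, which binds interleukin 6 and hands it to gp130 (Entrez 16194, chromosome 3, 89864059 to 89913196), had 0.231, 45.4 and 79.1 RPM in MOG KO and 142, 135 and 27.8 RPM in WT. It was present in 5 libraries, and the exception, MOG KO replicate 1, held 1 count, whose exact 95% interval (Clopper-Pearson, counting error only) reaches 1.29 RPM. The log2 fold change was -1.27 ± 2.15 (95% interval -6.28 to 3.74), and the groups overlapped through WT replicate 3.

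The chains that pair with the common gamma chain were present, at 10 RPM or more, in 4 libraries each. Il7r, the interleukin 7 receptor alpha chain (Entrez 16197, chromosome 15, 9505788 to 9530176), had 724, 61 and 8.11 RPM in MOG KO and 1033, 733 and 7.94 RPM in WT. Replicate 3 of each genotype was low and replicate 1 of each was high, and the numbers of the labels are not said to pair the samples. Its log2 fold change was -1.21 ± 1.82 (95% interval -5.45 to 3.02), and -4.03 without MOG KO replicate 1. Il21r, the interleukin 21 receptor (Entrez 60504, chromosome 7, 125603429 to 125633570), had 112, 459 and 1.74 RPM in MOG KO and 371, 375 and 1.7 RPM in WT. It too was near 0 in replicate 3 of each genotype, and its log2 fold change was -0.37 ± 2.25 (95% interval -5.61 to 4.87). Il4ra, which serves interleukins 4 and 13 (Entrez 16190, chromosome 7, 125552120 to 125579474), had 670, 578 and 2.32 RPM in MOG KO and 6.62, 656 and 291 RPM in WT. Here MOG KO replicate 3 and WT replicate 1 were the low libraries, so the low libraries differed from those of Il7r and Il21r in WT. Its log2 fold change was 0.32 ± 1.89 (95% interval -4.09 to 4.74), and 5 of its 12 alternatives gave a negative value.

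Il4ra and Il21r are neighbours on chromosome 7, with 24 kb and no protein-coding gene between them. MOG KO replicates 1 and 2 and WT replicate 2 had both genes present. WT replicate 1 had Il21r alone, WT replicate 3 had Il4ra alone, and MOG KO replicate 3 had neither.

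The class II receptor chains differed in evenness. Ifngr1, the ligand-binding chain of the interferon gamma receptor (Entrez 15979, chromosome 10, 19591949 to 19610229), had 455, 581 and 496 RPM in MOG KO and 594, 348 and 411 RPM in WT. Its highest and lowest values, both in WT, were 1.71-fold apart, and its coefficient of variation of 20% ranked 82 among the 704 genes present in all 6 libraries, where Il27ra ranked 308 with 40%. The means were 510 ± 64.2 RPM in MOG KO and 451 ± 128 RPM in WT (SD, n = 3 each; exact two-sided permutation p = 0.5), and the log2 fold change was 0.12 ± 0.66 (95% interval -1.4 to 1.64; edgeR adjusted p = 1). A change of 2-fold in either direction lies within that interval, so the test does not show that the genotypes were alike. The interval rests on edgeR's estimate of spread, which is shared across genes, and not on the spread of Ifngr1 alone. Il10ra, the ligand-binding chain of the interleukin 10 receptor (Entrez 16154, chromosome 9, 45253837 to 45269149), had 558, 2.75 and 0.58 RPM in MOG KO and 218, 198 and 0.283 RPM in WT. Its highest library was MOG KO replicate 1, and 3 libraries were under 3 RPM. The log2 fold change of 0.37 ± 2.73 (95% interval -6 to 6.74) became -6.28 without that library and -0.13 without WT replicate 3.

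The interleukin 1 receptor family members were read in 3 libraries each. Il18r1, the ligand-binding chain for interleukin 18 (Entrez 16182, chromosome 1, 40465552 to 40500854), had 3.24, 40.8 and 0.58 RPM in MOG KO and 259, 135 and 0.283 RPM in WT. WT replicates 1 and 2 were above every MOG KO library and WT replicate 3, like MOG KO replicate 3, was under its floor of 3 counts. Its log2 fold change was -3.12 ± 2.64 (95% interval -9.28 to 3.04), and -6.11 without MOG KO replicate 2. It was negative in all 12 alternatives and past the threshold in none of them. Il1rl1, which encodes ST2, the interleukin 33 receptor (Entrez 17082, chromosome 1, 40429570 to 40465415), had 31.9, 0 and 94.8 RPM in MOG KO and 129, 0.447 and 0 RPM in WT. In the 2 libraries with 0 counts, the floor of 3 counts, a one-sided limit, is 0.688 RPM in MOG KO replicate 2 and 0.85 RPM in WT replicate 3, and the two-sided exact 95% interval reaches 0.846 and 1.05 RPM in the same order. The log2 fold change was -0.03 ± 3.03 (95% interval -7.09 to 7.03), and 7.32 without WT replicate 1, the WT library that read it. Mast cell markers, from another cell type known for ST2, were at most 0.29 RPM in every library. The part of other cell types in the Il1rl1 values was not tested. Il1rl1 and Il18r1 lie head to tail with 136 bases between their annotated ends. WT replicate 1 was the only library in which both were present.

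**Figure D2:**
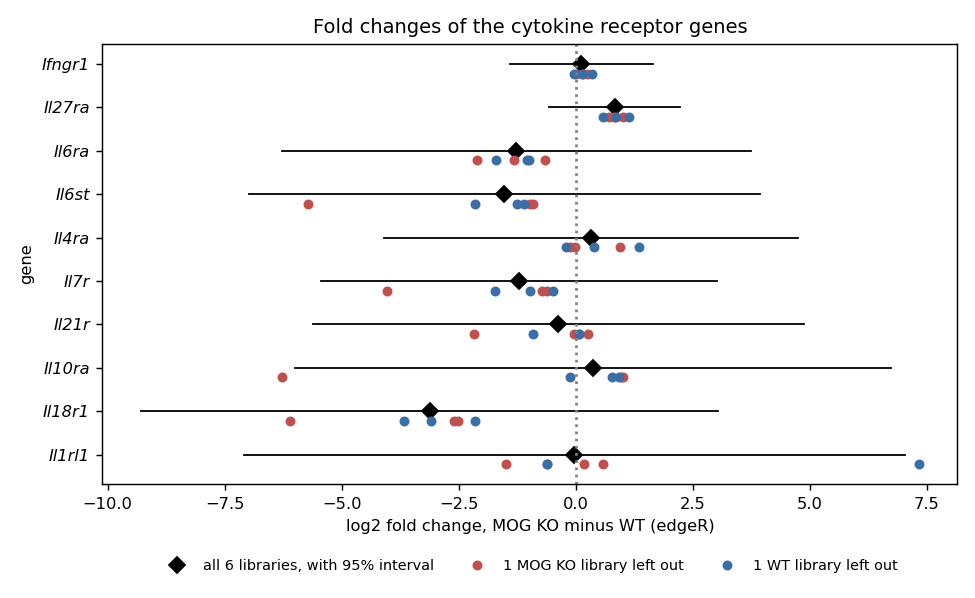
Log2 fold change of each receptor gene, MOG KO minus WT, from edgeR: diamonds with lines are the values from all 6 libraries with their 95% intervals, and dots are the values with 1 MOG KO or 1 WT library left out. All 10 intervals span 0; Ifngr1 and Il27ra have the narrowest intervals, and single libraries move Il6st to -5.72, Il10ra to -6.28 and Il1rl1 to 7.32.

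A receptor of this kind needs its partner chain. Il2rg, the common gamma chain, was the one partner present in every library, with 583, 652 and 749 RPM in MOG KO and 788, 533 and 671 RPM in WT (log2 fold change -0.07 ± 0.45). Il10rb, the second chain of the interleukin 10 receptor, had 339, 3.9 and 293 RPM in MOG KO and 4.78, 0 and 0.283 RPM in WT (6.92 ± 3.06, 95% interval -0.21 to 14.05; edgeR adjusted p = 1). MOG KO replicates 1 and 3 stood far above every WT library, and MOG KO replicate 2 lay among the WT libraries. Crlf2, which pairs with Il7r to bind thymic stromal lymphopoietin, had 0.231, 7.57 and 0 RPM in MOG KO and 63.3, 32.2 and 29.8 RPM in WT (-4.01 ± 2.44, 95% interval -9.7 to 1.69; edgeR adjusted p = 1). All WT libraries were above all MOG KO libraries for Crlf2, as they were for 4.57% of the genes tested. Ifngr2, the partner of Ifngr1, was present in WT replicate 1 alone, at 208 RPM, and the remaining libraries had 1.16 to 2.32 RPM. Il18rap was present in WT replicate 2 alone, at 640 RPM, and Il1rap in WT replicate 3 alone, at 154 RPM. Of the 10 partner chains 3 were tested, 1 was positive and 2 negative, and 0 passed.

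Counted as receptors with the gene of each chain present in the same library, 5, 3 and 2 of 9 receptors were complete in MOG KO replicates 1, 2 and 3, and 5, 6 and 1 in WT replicates 1, 2 and 3. The receptors of interleukins 4, 7, 21 and 27 were complete in 4 libraries each, 2 of each genotype, and the interleukin 6 receptor in 1 MOG KO and 2 WT libraries. The interleukin 10 receptor was complete in MOG KO replicate 1 alone, the interleukin 18 receptor in WT replicate 2 alone, and the interferon gamma receptor in WT replicate 1 alone. The interleukin 33 receptor was complete in no library. Since Il2rg was present in every library, the counts for interleukins 4, 7 and 21 repeat the presence of Il4ra, Il7r and Il21r. The counts depend on the 10 RPM threshold and were not repeated at another. Near it lay Il7r in replicate 3 of MOG KO and WT (8.11 and 7.94 RPM), Il4ra in WT replicate 1 (6.62 RPM) and Il6st in MOG KO replicate 1 (15.5 RPM). These counts concern RNA of 500 pooled cells and not protein or single cells.

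**Figure D3:**
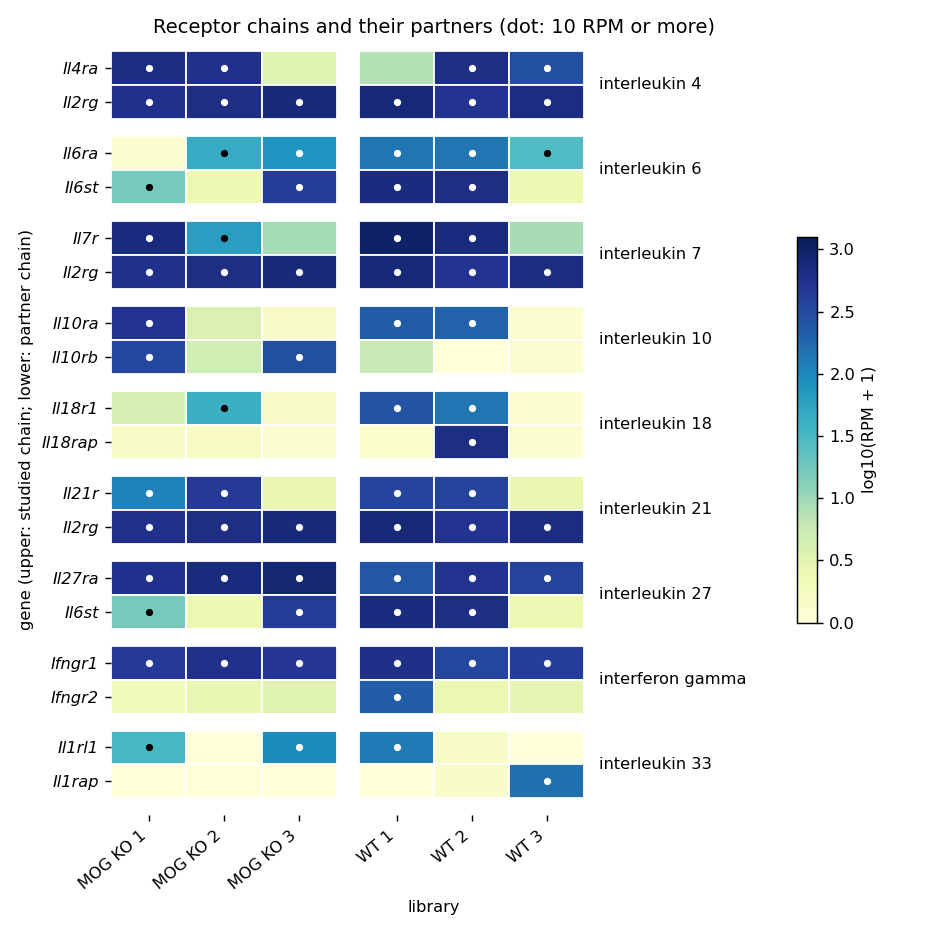
Level of each receptor chain (upper row of a pair) and its partner chain (lower row) in the MOG KO and WT libraries, coloured by log10(RPM + 1), with a dot at 10 RPM or more. Il2rg has a dot in all 6 libraries, and no library has dots for both chains of the interleukin 33 receptor.

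The ligands were mostly not read. Of 16 ligand genes, 13 were present in no library, and 9 of these, among them Il4, Il13, Il7, Il21, Il27 and Ifng, had 0 counts in all 6. The floor of 3 counts is 0.671 RPM in the deepest library and 1.1 RPM in the shallowest. Ebi3, a subunit shared by interleukins 27 and 35, was the single ligand gene tested, with 0.231, 84.6 and 0.29 RPM in MOG KO and 0, 109 and 155 RPM in WT (-1.71 ± 2.95). Il10, a suppressive cytokine of effector Tregs, had at most 0.229 RPM, under the floor of each library. Of 13 other cytokine receptor chains, 0 were present in all 6 libraries, 7 in some and 6 in none. Among the 6 tested, 4 were positive, 2 negative and 0 passed. Il12rb1, a chain of the interleukin 12 and 23 receptors, had 534, 385 and 598 RPM in MOG KO and 414, 305 and 0.85 RPM in WT (1.08 ± 1.61), and Ifnar2, of the type I interferon receptor, had 0.231, 249 and 0 RPM in MOG KO and 64.8, 0.447 and 36.8 RPM in WT (1.24 ± 2.98).

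Downstream, 1 of the Janus kinases was present in every library. Jak1, the kinase bound by gp130 and by the ligand-binding chains of the gamma chain receptors, ranged from 644 to 1304 RPM over the 6 libraries. Its coefficient of variation was 23.6%. The other 3 Janus kinases were read in 3 or 4 libraries. Of 4 kinases tested 0 passed, with 1 positive and 3 negative values, and the 2 of smallest p were Tyk2 (-1.49 ± 2.67) and Jak2 (-0.97 ± 2.22). Of 6 STAT genes tested 0 passed, with 3 positive and 3 negative. Stat3, the main factor of gp130 and interleukin 10 and 21 signals, had 0.231, 105 and 201 RPM in MOG KO and 741, 332 and 680 RPM in WT (-2.56 ± 1.79, 95% interval -6.75 to 1.62; edgeR adjusted p = 1). All WT libraries were above all MOG KO libraries for Stat3, as they were for 4.57% of the genes tested. Stat2, which acts in type I interferon signalling, had 456, 777 and 0.58 RPM in MOG KO and 9.2, 21 and 0.283 RPM in WT (5.34 ± 2.72, 95% interval -1 to 11.68).

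The MyD88 pathway, which serves the interleukin 18 and 33 receptors, had 0 of 8 genes present in every library. Of 3 tested, 2 were positive, 1 negative and 0 passed. Tab2, an adaptor of the kinase TAK1, had 3.24, 2.52 and 251 RPM in MOG KO and 92.7, 702 and 938 RPM in WT (-2.82 ± 2). Irak1, a kinase recruited by MyD88, had 0.693, 574 and 143 RPM in MOG KO and 405, 205 and 4.82 RPM in WT (0.25 ± 2.24). Myd88 itself, named after its values were seen, had 0 counts in every MOG KO library and 244, 274 and 0 RPM in WT, and was not among the genes that passed the filter.

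Inhibitors and targets of these receptors included 6 genes present in every library. Among the inhibitors these were Socs3 (147 to 547 RPM), which blocks gp130 signals, Cish (35.7 to 501 RPM) and the phosphatase gene Ptpn1 (150 to 715 RPM). Among the targets they were the transcription factor genes Gata3 (245 to 564 RPM), Maf (189 to 421 RPM) and Irf1 (28.4 to 591 RPM), the last a target of interferon gamma. Of 7 inhibitors tested 0 passed, with 2 positive and 5 negative. Those of smallest p were Ptpn6 (-3.95 ± 2.25), a phosphatase gene present in WT replicate 2 alone, and Pias2 (-4.87 ± 3.86). Of 6 targets tested 0 passed, with 3 positive and 3 negative. Pim1, a kinase gene induced through STAT factors, had 462, 524 and 581 RPM in MOG KO and 127, 85.2 and 0.567 RPM in WT (2.89 ± 1.78, 95% interval -1.25 to 7.03; edgeR adjusted p = 1), with no overlap between the groups. For Pim1, as for 5.97% of the genes tested, every MOG KO library was above every WT library. Bcl3 had 0.462, 362 and 232 RPM in MOG KO and 211, 261 and 529 RPM in WT (-0.82 ± 1.89). Over all 85 genes of these lists, 36 were tested and 0 passed in edgeR, with 16 positive and 20 negative values and a median log2 fold change of -0.06.

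**Figure D4:**
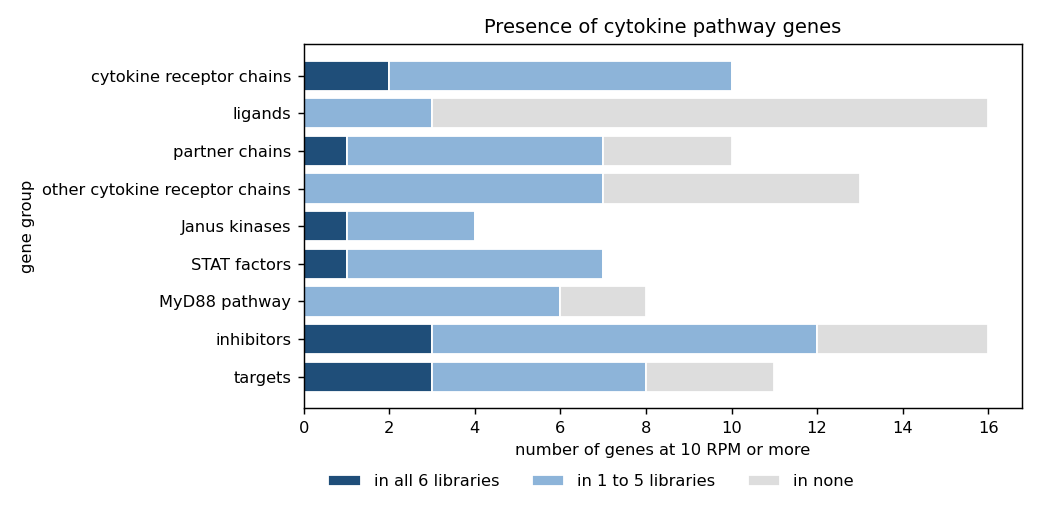
Number of genes of each cytokine pathway group at 10 RPM or more in all 6 libraries, in 1 to 5 libraries or in none. All 10 receptor genes are read in at least 1 library, and 13 of the 16 ligand genes in none.

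Among all genes present in at least 1 library, those closest to the 3 receptor genes of highest mean RPM were found by the Euclidean distance of log2(RPM + 1) over the 6 libraries. Ifngr1 was nearest to Lat, an adaptor of the T cell receptor (distance 0.52), and Hspa5, a chaperone of the endoplasmic reticulum (0.53). Il27ra was nearest to Gm8909 (0.82) and H2-K2 (0.85), whose reads may be shared with near-identical class I histocompatibility genes. Il7r was nearest to Nbeal2 (2.96). The presence pattern of Il7r, in replicates 1 and 2 of each genotype, was that of Il21r as well and of 124 genes in all, 1.57% of the genes present in any library. That match depends on the 10 RPM threshold. In replicate 3 of MOG KO and WT, Il7r had 8.11 and 7.94 RPM, and Il21r 1.74 and 1.7 RPM. The pattern of Il10ra, present in MOG KO replicate 1 and WT replicates 1 and 2, was that of 1.67% of these genes. For Il6st, Il18r1, Il6ra, Il1rl1 and Il4ra the share was 0.556% to 1.57%.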

How the data were processed

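RNA of 6 libraries, 3 MOG KO and 3 WT, was measured. The counts the authors deposited are raw exon counts, 1 column per library. Their deposited RPM values equal those counts rescaled by each library's total. The tools and build named, per the submitters' processing notes, are STAR 2.3.1, R 3.2.2 and mm10. How reads were assigned to genes, with which gene models and strand setting, is not given in the sources used here.

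Counts were tested with edgeR 4.0.16 (filterByExpr, TMM, robust quasi-likelihood fit, genotype alone), which kept 4088 genes (17.2%), with Benjamini-Hochberg adjustment at 0.05. SE is the absolute log2 fold change over the square root of F, and since edgeR shares its estimate of spread across genes it is approximate for evenly read genes. The same steps were run on simulated data, where the required check was that edgeR recover large changes at a spread set low. That check does not measure power at the spread of these data. Alternatives were DESeq2 1.42.0, limma-voom 3.58.1, other scalings and filters, a replicate block and leaving out each library. Positions and exon lengths are from GENCODE M21 (GRCm38), promoters from RefSeq (GRCm38.p6).

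The receptor genes and lists were chosen with earlier results of these data known, so no list was tested. Outside the receptors, up to 2 genes of smallest p per list are named, and genes present in all libraries by their range. Other partner chains, ligands and markers were named after their values were seen. Hba-a1 was not analysed here. A few genes within these rules are not reported here. Intervals and floors (3 counts) cover counting error only.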

Additional observations from a re-analysis of the deposited data

How the results depend on the processing

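The count of receptor genes past the threshold was 0 under all 12 alternatives. Over all genes the count was 0 in edgeR, and 0 with each edgeR alternative and with limma-voom. DESeq2, however, called 745 of the 4648 genes to which it gave an adjusted p, or 16% (271 higher and 474 lower). Of the 36 other pathway genes to which it gave an adjusted p, DESeq2 called 4, named here after their values were seen: Il10rb (log2 fold change 7), Socs2 (8.63) and Pias3 (7.07) higher, and Myd88 lower. The cause was not tested.

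Of 120 log2 fold changes of receptor genes under alternatives, 19 had the opposite sign, and Il6ra, Il6st, Il7r, Il18r1 and Il27ra kept theirs in all 12. Limma-voom gave Il4ra -0.29, Il10ra -1.44 and Il1rl1 1.56. DESeq2 gave Il1rl1 0.09, and its size factors in edgeR 0.01. Leaving out each library gave ranges of -0.21 to 1.35 for Il4ra, -6.28 to 1 for Il10ra, -2.17 to 0.26 for Il21r, -0.03 to 0.35 for Ifngr1 and -1.49 to 7.32 for Il1rl1. With the replicate number as a block, 0 genes were called and Il4ra was -0.13 and Il10ra -0.62. Same-numbered libraries had correlations of deviations of -0.021, -0.001 and -0.018, so the numbers were not taken to pair the samples. At 5 RPM in place of 10, receptor genes present numbered 8, 7 and 6 in MOG KO and 10, 9 and 5 in WT. At 50 RPM they numbered 6, 5 and 5 in MOG KO and 9, 9 and 3 in WT. With 10 RPM in the logarithm, each of the 3 nearest pairs of genes was the same.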
